A study of Mus musculus with 15 samples.

Results

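Cdx1, Cdx2, Gata4, Gata5, Gata6, Hnf4a, Hnf4g, Isx and Creb3l3, 9 transcription factors of intestinal epithelium, were followed through poly(A) RNA sequencing of mouse gut and of organoids grown from it. They were chosen by name and matched in the gene column of both deposited tables, where all 9 were found among 45905 genes. The 15 libraries form 5 groups of 3. Tamoxifen organoids are coded T41. Their titles name a Jup gene flanked by loxP sites on both alleles (JUPfl/fl) together with iVilCre ERT2, a Cre recombinase that tamoxifen switches on and that the villin promoter restricts to intestinal epithelium. DMSO organoids and nativ organoids both carry the code T75, and their titles give JUPfl/fl with no Cre. DMSO is a common drug solvent, and nativ is used here only as a group name. Gut libraries described as PG_KO are titled as JUPfl/fl with colitis from DSS (dextran sodium sulfate, which injures colon epithelium), and gut libraries described as ctr are titled as iVilCre ERT2 JUPfl/fl. These titles and descriptions contradict each other. Group names for gut follow the descriptions here, and which animals received DSS or carried Cre is not settled by the labels. JUPfl/fl is thus named for every group, and the ages of the animals are not given in the sources used here. Each organoid group has a single code, so code, Cre and treatment cannot be told apart between Tamoxifen organoids and the T75 organoids.

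These factors set and keep the identity of the intestinal lining. CDX1 and CDX2 are homeobox proteins related to fly Caudal, and CDX2 is needed in mouse for intestinal rather than stomach-like fate. HNF4A and HNF4G are nuclear receptors that act together on brush border and lipid genes of enterocytes, the absorptive cells. GATA4, GATA5 and GATA6 are zinc finger proteins, and in mouse GATA4 marks the proximal small intestine, whereas GATA6 is made along the whole gut. ISX is an intestine-specific homeobox protein that responds to vitamin A and represses the carotene-cleaving enzyme gene Bco1 and the lipid receptor gene Scarb1. CREB3L3 is a transcription factor held in the endoplasmic reticulum membrane until it is cut free, and it acts on lipid genes in liver and small intestine.

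Assigned reads per library ran from 25185053 to 30744563 in organoids and from 23194385 to 29257641 in gut, so 3 reads in a library equal 0.0976 to 0.129 CPM (reads scaled to the library total). Jup, the gene targeted in the study, stood at 69.0, 70.9 and 71.2 CPM in Tamoxifen organoids, at 360, 378 and 414 CPM in DMSO organoids and at 386, 275 and 395 CPM in nativ organoids. In gut it stood at 75.2, 82.8 and 80.3 CPM in PG_KO libraries and at 302, 375 and 495 CPM in ctr libraries, so low Jup went with the descriptions. All groups expressed epithelial genes, and 6 of them (Epcam, Cdh1, Krt8, Krt18, Krt19 and Cldn7) summed to 6388 to 9493 CPM in organoids and 7106 to 14099 CPM in gut. A second list of 6 genes of intestinal epithelium (Vil1, Cdh17, Lgals4, Fabp1, Muc2 and Lgr5) summed to 5584 to 5633 CPM in Tamoxifen organoids but to only 513 to 740 CPM in DMSO and nativ organoids. Of genes named after their values were seen, the fatty acid binding protein gene Fabp1 had 1 read in DMSO and 8 in nativ organoids, while the stem cell receptor gene Lgr5 averaged 60.9 CPM in DMSO and 58.4 CPM in nativ organoids. Genes of smooth muscle and fibroblasts summed to at most 1.62 CPM in any organoid library. Macrophage and neutrophil genes summed to 17.7 to 18.5 CPM in Tamoxifen organoids, of which Lyz2 made up 16.7 to 17.6 CPM, and to 1.21 to 2.05 CPM in T75 organoids. Their part in the results was not tested. The stomach list summed to at most 0.361 CPM in organoids, the kidney list to at most 5.89 CPM, the liver list to at most 27.1 CPM and the pancreas list to 28.2 to 37.5 CPM in T75 organoids, most of it Pdx1 at a mean of 23.5 CPM in DMSO and nativ organoids.

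The genes lie on 7 mouse chromosomes and are all annotated as protein-coding in the deposited tables (GRCm38.p6). Cdx2 lies at chr5:147300900-147307249 and Gata4 at chr14:63198914-63271712, both on the minus strand. Gata5 lies at chr2:180325088-180335503 on the minus strand, and Hnf4a lies on the plus strand of the same chromosome at chr2:163506811-163572907. Hnf4g lies at chr3:3508030-3659800 and Isx at chr8:74873174-74893506, both on the plus strand, and Creb3l3 at chr10:81084324-81098872 on the minus strand. Cdx1 and Gata6 both lie on chromosome 18.

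In organoids, 7 of the 9 factors were higher in the Tamoxifen group than in either T75 group, and 5 of those 7 were at or near 0 reads in the T75 organoids. Against DMSO organoids 8 of 9 passed an edgeR adjusted p of 0.05, 7 higher and 1 lower, where 66.3% of the 16449 genes tested passed (33.9% higher and 32.4% lower). Against nativ organoids 7 passed, all higher, where 66.9% of genes passed (33.5% higher and 33.5% lower). The share of genes that changed was thus high in both comparisons, and these counts are read against it. The median log2 change of the 9 was 9.37 against DMSO and 8.34 against nativ organoids, and over all genes tested it was 0.02 and 0.01. The p-values measure only the spread between these libraries, since the labels do not say whether the 3 of a group came from separate cultures, and both comparisons share the Tamoxifen libraries.

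The caudal factors differed in how far they fell in the T75 organoids. Cdx1, which is highest in crypts of the distal gut in mouse, stood at 101, 99.3 and 109.6 CPM in Tamoxifen organoids, at 0, 0 and 0.0328 CPM in DMSO organoids and at 0.0328, 0.277 and 0.104 CPM in nativ organoids. DMSO organoids held 1 Cdx1 read in all, against 9151 in Tamoxifen organoids, a ratio of 8804 with a 95% counting interval of 1580 to 347786 (counting error only). Relative to the nativ group its fitted log2 change reached 9.41 (SE 0.30, edgeR adjusted p = 1.08e-09). Cdx2 remained measurable everywhere, at 326, 326 and 335 CPM in Tamoxifen organoids, at 15.6, 15.5 and 17.8 CPM in DMSO organoids and at 16.0, 17.8 and 15.9 CPM in nativ organoids. It was 19.2-fold higher in Tamoxifen than in DMSO organoids (log2 change 4.27, SE 0.12, edgeR adjusted p = 6.07e-10) and 18.2-fold higher than in nativ organoids (4.18, SE 0.12, edgeR adjusted p = 7.06e-10). The 3 Tamoxifen libraries lay above all 6 T75 libraries for both genes, and the 6 T75 libraries overlapped between DMSO and nativ.

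The HNF4 receptors showed the same split between a partner that stayed and a partner near 0. Hnf4a, the broader of the pair and also a factor of liver, stood at 1055, 1058 and 1051 CPM in Tamoxifen organoids, at 225, 161 and 184 CPM in DMSO organoids and at 168, 99.9 and 164 CPM in nativ organoids. It rose 5.32-fold against DMSO (log2 change 2.41, SE 0.16, edgeR adjusted p = 3.37e-07) and 6.83-fold against nativ organoids (2.77, SE 0.17, edgeR adjusted p = 1.23e-07). Its Tamoxifen libraries lay close together and above all T75 libraries, of which nativ replicate 2 was the lowest. Hnf4g, which in mouse shares enterocyte targets with Hnf4a, stood at 177, 174 and 169.5 CPM in Tamoxifen organoids, at 0.169, 0.159 and 0.393 CPM in DMSO organoids and at 0.491, 0.658 and 0.313 CPM in nativ organoids. T75 organoids thus held 4 to 19 Hnf4g reads per library, against 4739 to 5356 in Tamoxifen organoids. The log2 change was 9.37 against DMSO (SE 0.24, edgeR adjusted p = 3.23e-10) and 8.34 against nativ organoids (SE 0.22, edgeR adjusted p = 3.86e-10).

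Isx and Creb3l3, a homeobox factor of vitamin A feedback and a membrane-bound factor of lipid genes, were close to absent from T75 organoids. Isx stood at 62.7, 61.6 and 61.8 CPM in Tamoxifen organoids, with 0 reads in all 3 DMSO libraries and 0, 1 and 1 read in the nativ libraries. It was at least 1762-fold higher in Tamoxifen than in DMSO organoids, counting 3 reads for the whole DMSO group as the floor. Against nativ organoids the ratio was 2732, with a 95% counting interval of 756 to 22567. Creb3l3 stood at 88.4, 90.3 and 82.8 CPM in Tamoxifen organoids, at 0.0338, 0.0794 and 0.207 CPM in DMSO organoids and at 0.0983, 0.381 and 0.0696 CPM in nativ organoids. Its log2 change was 9.57 against DMSO (SE 0.35, edgeR adjusted p = 2.96e-09) and 8.75 against nativ organoids (SE 0.33, edgeR adjusted p = 3.44e-09). No T75 library of either gene came near a Tamoxifen library.

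Of the GATA factors, Gata4 was much higher in Tamoxifen organoids, whereas Gata5 and Gata6 changed far less. Gata4, the proximal member, stood at 118, 119 and 125 CPM in Tamoxifen organoids, at 0.113, 0 and 0.0656 CPM in DMSO organoids and at 0, 0.416 and 0 CPM in nativ organoids. All 12 nativ reads of Gata4 came from replicate 2, and Gata4 rose by 9.62 relative to the nativ group (log2, SE 0.48, edgeR adjusted p = 2.79e-08) with that library. Without it nativ organoids had 0 Gata4 reads, and Gata4 was higher in Tamoxifen organoids by at least 11.22 on the log2 scale, counting 3 reads for the nativ group. In the DMSO comparison it reached 10.84 (SE 0.53, edgeR adjusted p = 2.37e-08). Gata6 differed little between organoid groups, at 83.8, 81.8 and 89.0 CPM in Tamoxifen organoids, at 67.5, 75.1 and 88.3 CPM in DMSO organoids and at 78.9, 60.4 and 73.9 CPM in nativ organoids. Its log2 change of 0.07 against DMSO (SE 0.11, 95% interval -0.14 to 0.28) and of 0.14 against nativ organoids (SE 0.11, -0.07 to 0.35) did not pass (edgeR adjusted p = 0.561 and 0.255). Differences beyond 0.35 on the log2 scale lie outside both intervals, which are approximate. The Tamoxifen libraries all lay above the nativ libraries for Gata6. Gata5, a further family member of gut epithelium, stood at 48.7, 46.4 and 50.7 CPM in Tamoxifen organoids, at 63.3, 50.6 and 61.7 CPM in DMSO organoids and at 56.8, 43.3 and 52.7 CPM in nativ organoids. It was the 1 factor that passed as lower in Tamoxifen than in DMSO organoids, by -0.33 (SE 0.09, edgeR adjusted p = 0.00927), although the ranges of the groups overlapped. With library totals in place of TMM factors (edgeR's scaling) that call was lost (-0.27, edgeR adjusted p = 0.0887), where its other alternatives gave edgeR or DESeq2 adjusted p from 0.00299 to 0.0427. Against nativ organoids Gata5 changed by -0.18 and did not pass (SE 0.09, edgeR adjusted p = 0.114), and without nativ replicate 2 it changed by -0.24 and passed (edgeR adjusted p = 0.0303). Groups did not overlap for 7 of the 9 factors against DMSO and for 8 against nativ organoids, where 76.2% and 74.7% of all genes tested did not overlap.

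**Figure D1:**
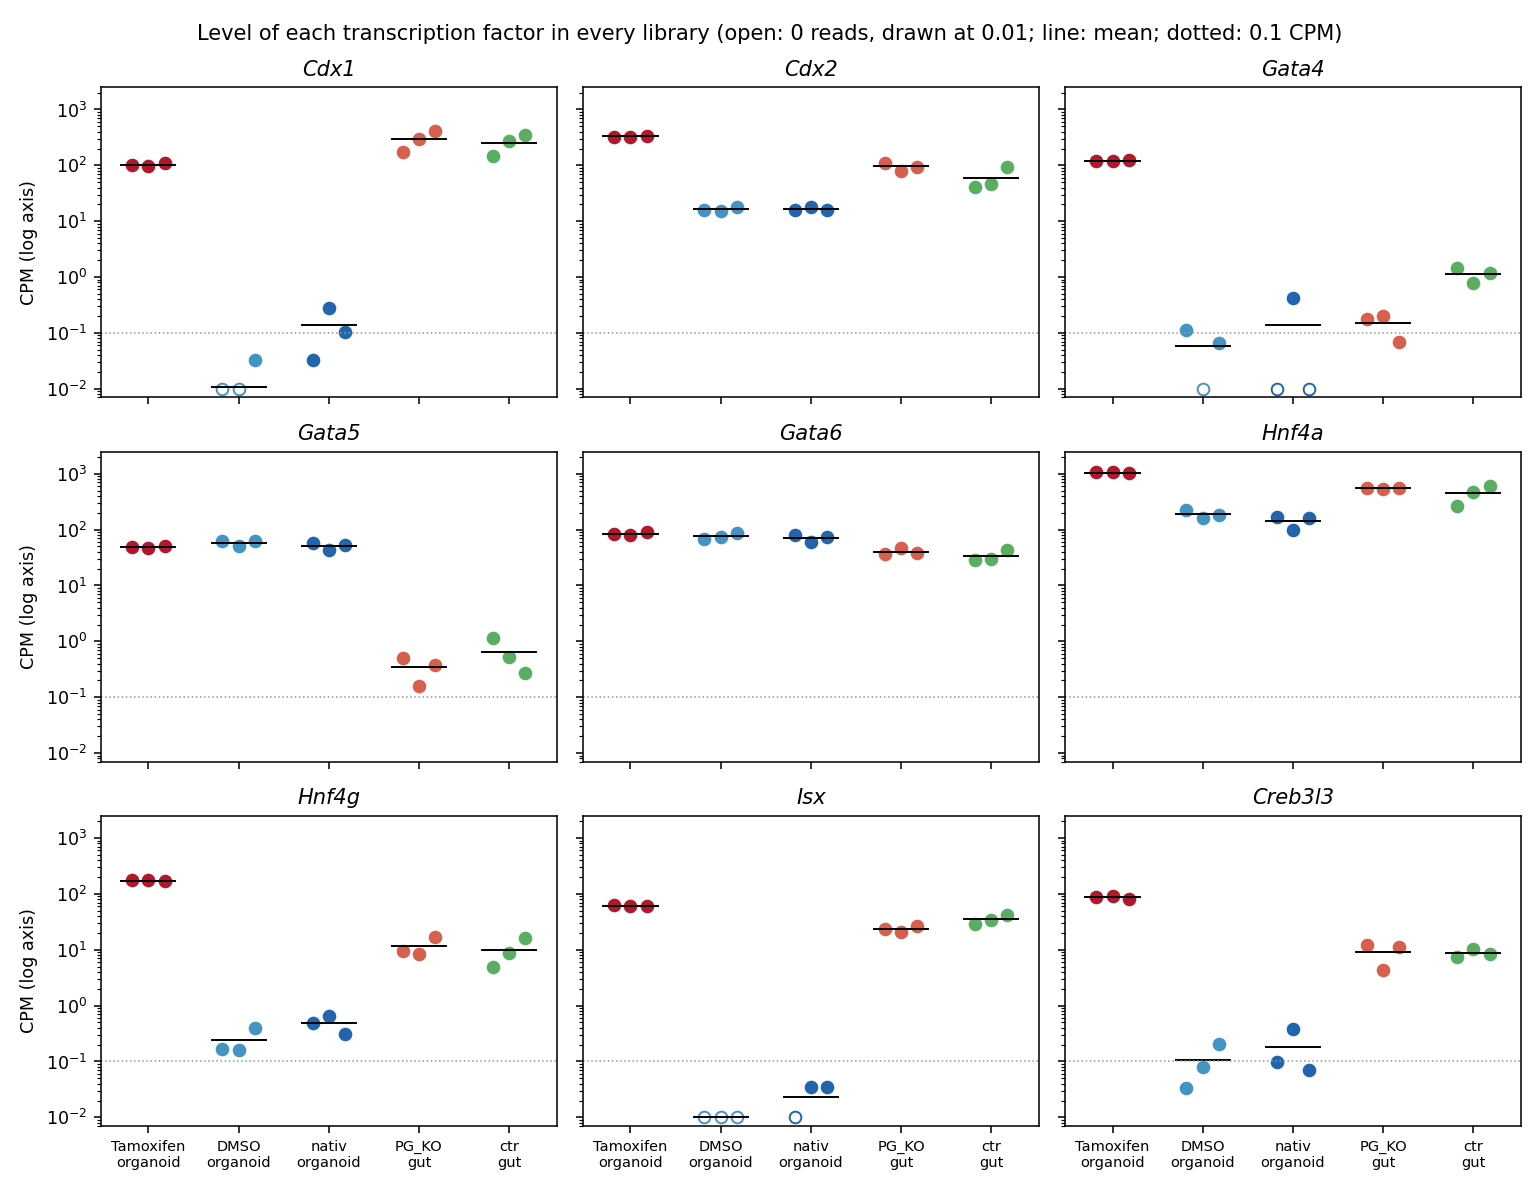
CPM of each factor on a log axis, with 1 point per library, the group mean as a black line, libraries with 0 reads as open circles at 0.01 and 0.1 CPM (about 3 reads) as a dotted line. Cdx1, Gata4, Hnf4g, Isx and Creb3l3 sit near the dotted line in DMSO and nativ organoids, Gata5 and Gata6 have similar means in the organoid groups (48.6 to 58.5 and 71.1 to 84.9 CPM), and Gata4 and Gata5 are near the dotted line in gut.

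**Figure D2:**
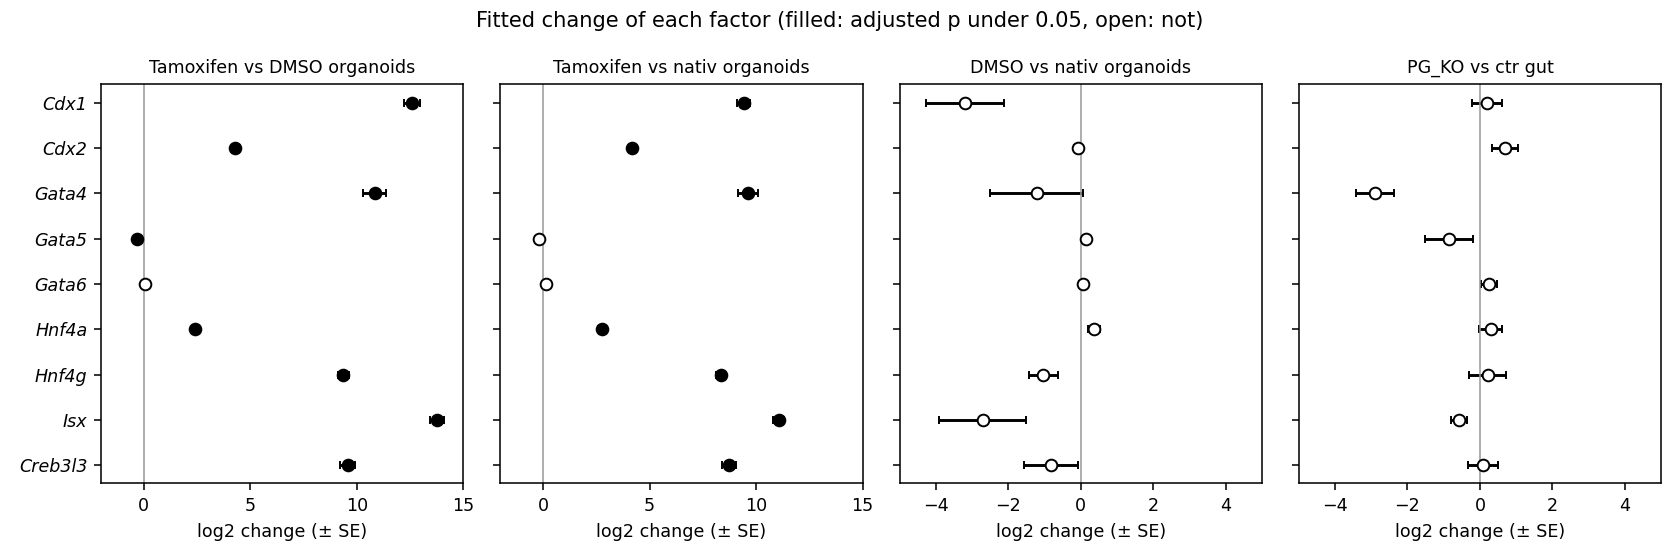
Fitted log2 change of each factor with its SE in 4 comparisons, filled where the edgeR adjusted p is under 0.05. The organoid panels against DMSO and nativ run from -2 to 15 and the other panels from -5 to 5, and no point is filled in DMSO against nativ organoids or in PG_KO against ctr gut.

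Scaled to gene length, as TPM (a per-length share of all transcripts), each family had its own make-up by group. The summed level of Cdx1 and Cdx2 was 460 ± 7.31 TPM in Tamoxifen organoids, 15.1 ± 1.93 TPM in DMSO organoids and 14.3 ± 0.597 TPM in nativ organoids (SD, n = 3 each). Cdx1 made up 27.8% ± 0.75 of that sum in Tamoxifen organoids, and 0.0749% ± 0.13 and 0.974% ± 0.825 in DMSO and nativ organoids. In gut, where Cdx1 led, its share was 77.1% ± 10.6 in PG_KO and 83.9% ± 3.58 in ctr libraries. Hnf4a outweighed Hnf4g in every library, and Hnf4g made up 14.7% ± 0.232 of their sum in Tamoxifen organoids, 0.136% ± 0.0781 in DMSO organoids, 0.399% ± 0.257 in nativ organoids, 2.15% ± 0.848 in PG_KO gut and 2.19% ± 0.484 in ctr gut. Among the GATA genes, Gata4 led in Tamoxifen organoids with 44.9% ± 0.616, and Gata6 led in the others, with 57.2% ± 4.47 in DMSO organoids, 58.6% ± 0.184 in nativ organoids, 98.8% ± 0.505 in PG_KO gut and 95.1% ± 2.5 in ctr gut. Gata5 held 42.8% ± 4.44 in DMSO and 41.2% ± 0.114 in nativ organoids, against 19.8% ± 0.351 in Tamoxifen organoids.

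**Figure D3:**
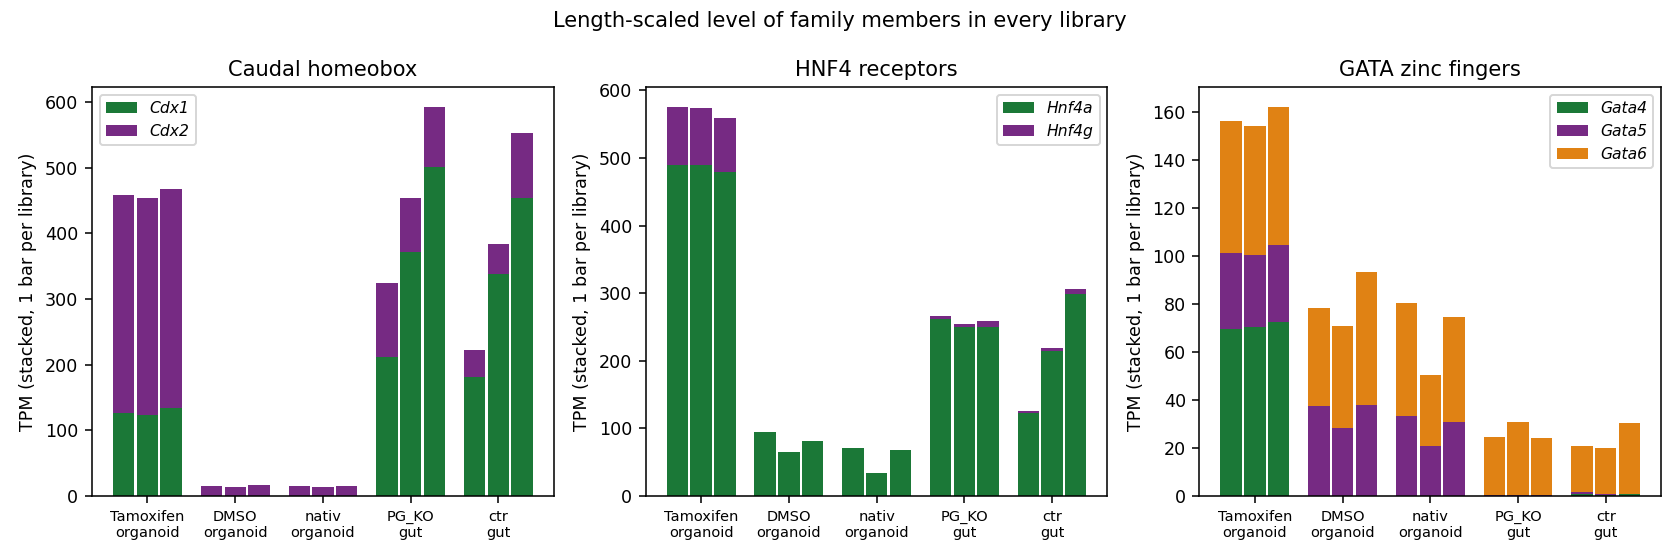
Stacked TPM of the caudal, HNF4 and GATA genes, 1 bar per library. The T75 bars hold almost only Cdx2, Hnf4a and the pair Gata5 and Gata6, and the gut bars hold mostly Cdx1, Hnf4a and Gata6.

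The stretches upstream of start sites are shown for factors that moved together in organoids (Cdx2, Hnf4a, Isx and Creb3l3) and for Gata5, which did not rise with them. RefSeq promoters (GRCm38.p6) matched 5 of the 9 factors with 7 start sites, of which 6 are printed from base -250 to base -51 of the start, 5′ to 3′ on the gene's strand. Capitals mark matches, on either strand, to 5 motifs. For caudal factors the letters TTTATG were searched, and also the variant TTTATT. For HNF4 the letters were CAAAGTCCA and the shorter core CAAAG that it contains. For GATA factors they were AGATAA.
Cdx2 (chr5:147307300-147307499, minus strand): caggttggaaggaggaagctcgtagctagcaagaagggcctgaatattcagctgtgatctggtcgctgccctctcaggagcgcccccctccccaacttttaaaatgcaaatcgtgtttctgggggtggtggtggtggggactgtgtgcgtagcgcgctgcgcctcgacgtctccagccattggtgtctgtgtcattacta
Hnf4a, outer start (chr2:163506607-163506806, plus strand): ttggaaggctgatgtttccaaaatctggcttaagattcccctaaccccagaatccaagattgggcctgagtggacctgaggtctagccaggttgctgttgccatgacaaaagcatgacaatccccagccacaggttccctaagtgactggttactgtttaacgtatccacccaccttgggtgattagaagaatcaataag
Hnf4a, inner start (chr2:163546905-163547104, plus strand): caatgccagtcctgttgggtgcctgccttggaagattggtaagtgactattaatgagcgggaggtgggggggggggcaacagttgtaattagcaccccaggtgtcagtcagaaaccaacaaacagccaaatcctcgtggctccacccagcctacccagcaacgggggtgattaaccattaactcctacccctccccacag
Isx (chr8:74872924-74873123, plus strand): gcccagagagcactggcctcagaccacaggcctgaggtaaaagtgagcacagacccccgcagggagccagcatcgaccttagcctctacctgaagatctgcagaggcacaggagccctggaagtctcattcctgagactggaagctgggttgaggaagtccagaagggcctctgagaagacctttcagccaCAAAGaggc
Creb3l3 (chr10:81098923-81099122, minus strand): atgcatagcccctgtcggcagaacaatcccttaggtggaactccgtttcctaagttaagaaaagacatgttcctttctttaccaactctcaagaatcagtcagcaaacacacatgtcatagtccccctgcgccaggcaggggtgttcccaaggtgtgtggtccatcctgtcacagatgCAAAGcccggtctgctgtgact
Gata5 (chr2:180334730-180334929, minus strand): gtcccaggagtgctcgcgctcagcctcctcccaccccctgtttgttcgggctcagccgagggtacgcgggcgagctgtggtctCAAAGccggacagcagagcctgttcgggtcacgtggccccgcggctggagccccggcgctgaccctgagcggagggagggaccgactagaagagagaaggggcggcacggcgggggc
The 5-base core CAAAG was found once each upstream of the start sites of Isx (bases -59 to -55), Creb3l3 (-72 to -68) and Gata5 (-167 to -163). It occurs in 42.3% of the 32851 promoters used, in a window of the same 200 bases. The RefSeq start of Gata5 lies within the gene span given above, so its window lies inside that span. A short stretch from the inner Hnf4a start onward was found in no Hnf4a transcript of the GENCODE annotation. Such stretches of the other starts were found in transcripts of their genes. The inner Creb3l3 start, not printed, holds CAAAG at bases -176 to -172 and -169 to -165 and AGATAA at -138 to -133. The other motifs were not found in the 6 printed windows, and they occur in 8.78% (TTTATG), 15.3% (TTTATT), 0.295% (CAAAGTCCA) and 8.42% (AGATAA) of promoters. The CAAAG core thus lay upstream of genes that rose and of 1 that did not, and these letters say nothing of whether a factor binds there. Cdx1, Gata4, Gata6 and Hnf4g have no entry among the promoters used.

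Other gut transcription factors moved in both directions. Of a list of 32, 31 were tested, and 20 rose and 9 fell in Tamoxifen organoids against either T75 group. Of all genes tested 33.9% rose and 32.4% fell against DMSO organoids, and 33.5% rose and 33.5% fell against nativ organoids. The median log2 change of the list was 2.98 against DMSO and 2.90 against nativ organoids, the same when genes without reads take their lower bound. Among those with the smallest p against DMSO organoids were the xenobiotic receptor Nr1i2, at 55.6 ± 0.5 CPM in Tamoxifen and 0.195 ± 0.0719 CPM in DMSO organoids (log2 change 8.03, SE 0.20), and the bile acid receptor Nr1h4, at 58.2 ± 2.23 against 2.67 ± 0.551 CPM (4.38, SE 0.16). Foxa2, a forkhead factor of endoderm, went the other way. It stood at 4.61 ± 0.276 CPM in Tamoxifen and 98.4 ± 11.6 CPM in DMSO organoids (-4.48, SE 0.13). Against nativ organoids Osr2, a zinc finger factor, was higher, with 7749 reads in Tamoxifen and 3 in nativ organoids, a ratio of 2569 (95% counting interval 879 to 12459), and it had 0 reads in DMSO organoids. Neurog3, the factor that starts enteroendocrine fate, had 643 reads in Tamoxifen organoids and 0 in all 6 T75 libraries, at least 206-fold higher than in DMSO and at least 213-fold higher than in nativ organoids. Neurod1, which follows it, had 0 reads in nativ organoids and was at least 61-fold higher in Tamoxifen organoids, and the caudal gene Cdx4 had 0 reads in all 15 libraries.

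**Figure D4:**
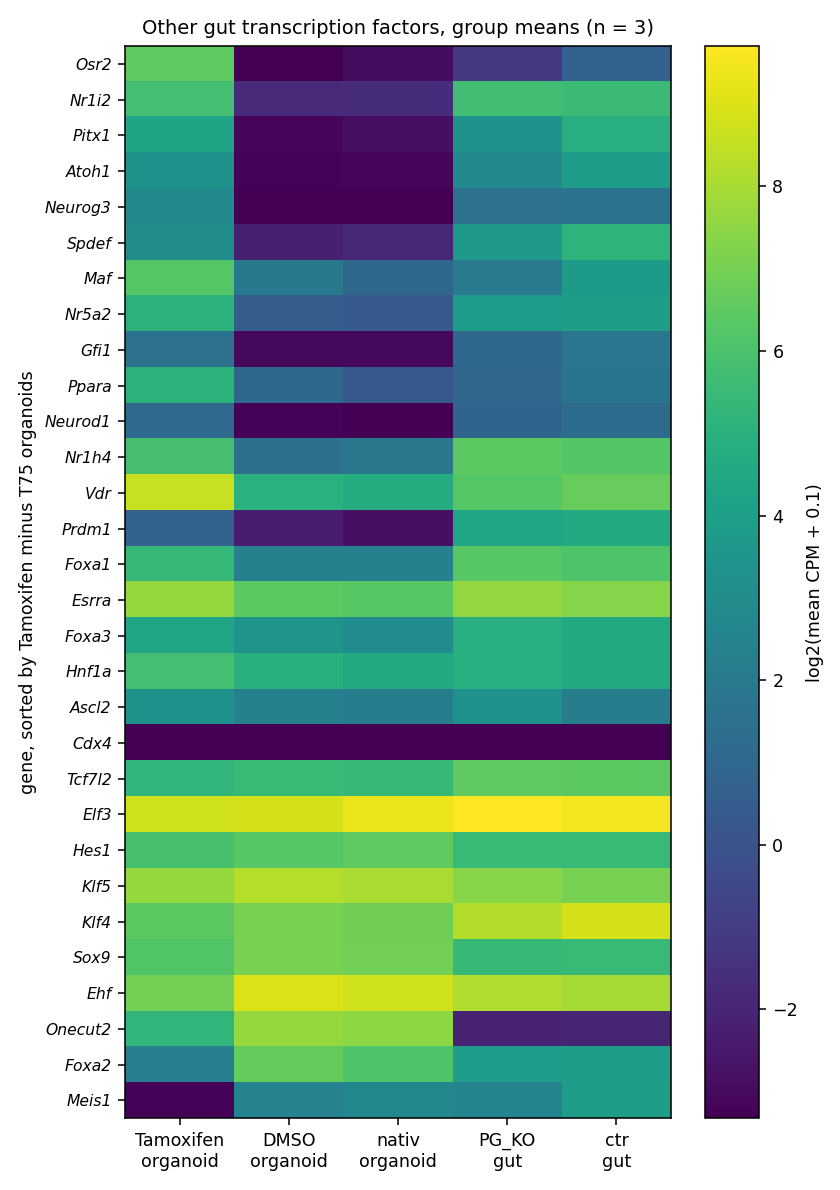
Heat map of the group means of 30 other gut transcription factors as log2(mean CPM + 0.1), n = 3 libraries per group, sorted by the Tamoxifen level minus that of the T75 organoids. Osr2, Nr1i2 and Pitx1 are at the top, Foxa2 and Meis1 at the bottom, and Cdx4 is at 0 reads throughout.

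Genes known as targets of the factors were mostly higher in Tamoxifen organoids. The list includes genes that a factor represses or restrains. Of 28 on it, 26 were tested. Against DMSO organoids 24 rose and 1 fell (median log2 change 9.55), where 33.9% of all genes tested rose and 32.4% fell. Against nativ organoids 25 rose and 1 fell (9.20), where 33.5% of all genes rose and 33.5% fell. All 8 genes tied to Cdx2 rose against DMSO organoids, by 2.43 to 14.98, as did all 10 tied to Hnf4a and Hnf4g, by 5.80 to 14.54. Among those of the HNF4 pair, the brush border cadherins Cdhr2 and Cdhr5 had the smallest p, at 941 ± 7.95 CPM in Tamoxifen and 1.28 ± 0.135 CPM in DMSO organoids for Cdhr2 (log2 change 9.44, SE 0.15) and at 639 ± 6.63 against 0.698 ± 0.0962 CPM for Cdhr5 (9.76, SE 0.17). Fabp2, which binds fatty acids inside enterocytes, rose by 10.25 (SE 0.20). Of 4 genes tied to Gata4, which include ileal genes that it restrains in mouse jejunum, 3 rose against DMSO organoids. They were the vitamin B12 receptor gene Cubn, by 9.66 (SE 0.24), and the ileal genes Slc10a2 and Fabp6, named after their values were seen. Slc10a2 rose by 3.11 (SE 0.15), and Fabp6 had 9565 reads in Tamoxifen and 1 in DMSO organoids. Both were thus higher where Gata4 was also higher. The pair tied to Isx, named after their values were seen, split. Bco1, which ISX represses in mouse, rose by 5.97 (SE 0.21, edgeR adjusted p = 1.84e-09) in Tamoxifen organoids, where Isx was also higher, and Scarb1, with a log2 change of -0.58, fell (SE 0.08, edgeR adjusted p = 5.48e-05). Of 4 genes tied to Creb3l3, 2 were tested, and both rose, by 4.81 and 6.32. The other 2 were too low, with Apoa5 at 0 reads in DMSO, nativ and PG_KO libraries and Fgf21 at 0 reads in gut.

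Between DMSO organoids and nativ organoids, which share the T75 code, none of the 9 factors passed after adjustment. Cdx1, Gata4, Isx and Creb3l3 were near 0 reads in both groups and entered this test through the Tamoxifen libraries in the same fit. A fit of only the compared libraries gave no value for these, so their missing calls do not show that the groups agree. With edgeR 0 of 9 passed, where 0% of the 16449 genes tested passed, and 3 (Cdx1, Hnf4a and Hnf4g) had an unadjusted p under 0.05. DESeq2 called 0 of the 9 and 138 of the 14950 genes it tested. Hnf4a was the factor with most reads, at 190 ± 32.4 CPM in DMSO and 144 ± 38.2 CPM in nativ organoids (log2 change 0.36, SE 0.16, 95% interval 0.05 to 0.67, edgeR adjusted p = 0.332). Cdx2 changed by -0.08 (SE 0.11, -0.30 to 0.14, edgeR adjusted p = 0.728) and Gata5 by 0.15 (SE 0.09, edgeR adjusted p = 0.436). The ranges of the groups overlapped for all 9 factors, while they did not for 14.1% of genes tested. Reads of the near-absent factors were most frequent in nativ replicate 2, which held 8 of 13 T75 reads of Cdx1, 19 of 64 of Hnf4g and 11 of the 25.33 expected reads of Creb3l3. No gene of the 31 other factors or the 26 targets tested passed, and Foxa2 had the smallest p among the factors, at 98.4 ± 11.6 CPM in DMSO and 70.0 ± 13.3 CPM in nativ organoids (0.45, SE 0.11, edgeR adjusted p = 0.291).

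In gut tissue the factors did not separate PG_KO from ctr libraries as they separated the organoids. With edgeR 0 of 9 passed, where 0% of the 18043 genes tested passed, and Gata4 and Isx had an unadjusted p under 0.05. Jup itself did not pass there either (edgeR adjusted p = 0.163), at -2.29 on the log2 scale with SE 0.23. Yet Jup reached at most 82.8 CPM in PG_KO and at least 302 CPM in ctr libraries. A count of 0 in this test thus does not show that the factors were unchanged. DESeq2 called 1 of the 9 (Gata4) and 435 of the 18291 genes it tested. The median log2 change of the 9 with edgeR was 0.19, against -0.03 over all genes. In whole tissue, fewer cells of a type and less RNA per cell cannot be told apart. Gata4 was low in both groups, with 5, 5 and 2 reads in PG_KO and 40, 18 and 31 reads in ctr libraries, or 0.176, 0.198 and 0.0684 CPM against 1.43, 0.776 and 1.19 CPM. Its groups did not overlap, and the log2 change was -2.90 (SE 0.52, edgeR adjusted p = 0.33, DESeq2 adjusted p = 0.0032, 0.0032 to 0.604 over its alternatives). Isx stood at 23.1, 21.0 and 26.1 CPM in PG_KO and at 28.6, 34.8 and 42.4 CPM in ctr libraries, again without overlap, and changed by -0.58 (SE 0.21, edgeR adjusted p = 0.33). These were the only 2 of the 9 whose groups did not overlap, where 18.6% of genes did not.

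The other factors overlapped between PG_KO and ctr gut. Cdx1 stood at 170.3, 297 and 417 CPM in PG_KO and at 146, 275 and 349 CPM in ctr libraries (log2 change 0.19, SE 0.42, edgeR adjusted p = 0.824). Cdx2 stood at 112, 80.4 and 93.7 CPM in PG_KO and at 40.4, 45.7 and 92.7 CPM in ctr libraries (0.69, SE 0.36, edgeR adjusted p = 0.375), so ctr replicate 3 lay among the PG_KO libraries. Without that replicate Cdx2 passed at 1.22 (edgeR adjusted p = 0.0414, 0.0414 to 0.872 over its alternatives). In the same fit Gata4 passed at -2.81 (edgeR adjusted p = 0.0451), and 1478 of the 18679 genes tested passed. Hnf4a stood at 566, 537 and 560.3 CPM in PG_KO and at 265, 469.7 and 615 CPM in ctr libraries, a wider spread among ctr (0.30, SE 0.32, edgeR adjusted p = 0.618). Hnf4g ran from 8.27 to 17.2 CPM in PG_KO and from 4.87 to 16.5 CPM in ctr, Creb3l3 from 4.39 to 11.9 CPM in PG_KO and from 7.52 to 10.3 CPM in ctr, and Gata6 from 36.7 to 46.1 CPM in PG_KO and from 28.9 to 43.0 CPM in ctr. Gata5 had 4 to 14 reads per PG_KO library and 7 to 32 per ctr library.

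Marker genes of other gut wall cells varied between the same libraries. None of them passed between PG_KO and ctr gut, where 0% of all genes passed, so this does not show a like cell make-up. Median log2 changes were -1.67 for smooth muscle, -1.06 for fibroblast, -1.30 for endothelial and -1.68 for T and B cell genes. They were -0.72 for macrophage and neutrophil genes and -0.87 for genes of enteric neurons and glia, against -0.03 over all genes. The 6 smooth muscle genes summed to 598, 879 and 1151 CPM in PG_KO and to 4263, 3385 and 657 CPM in ctr libraries, and the 6 fibroblast genes to 1270, 1367 and 629 CPM in PG_KO and to 3627, 2161 and 919 CPM in ctr libraries. T and B cell genes summed to 134 to 157 CPM in PG_KO and 215 to 580 CPM in ctr libraries, and endothelial genes to 29.4 to 89.0 CPM in PG_KO and 44.8 to 213 CPM in ctr libraries. Macrophage and neutrophil genes summed to 189 to 987 CPM in PG_KO and 678 to 2050 CPM in ctr libraries, and genes of enteric neurons and glia to 52.8 to 71.2 CPM in PG_KO and 77.4 to 179 CPM in ctr libraries. The epithelial genes summed to 14099, 11400 and 13367 CPM in PG_KO and to 7106, 8178 and 11399 CPM in ctr libraries. The intestinal epithelium list ran the other way, at 5147, 4453 and 5217 CPM in PG_KO and 5266, 6184 and 6363 CPM in ctr libraries. Its genes did not fall together, and they are named after their values were seen. Muc2 had a log2 change of -2.64, against 0.16 for Vil1, 0.165 for Cdh17, 0.14 for Lgals4 and 1.33 for Lgr5, and none passed. Fabp1 was near 0, with 3 reads in PG_KO and 4 in ctr libraries. Within the first list the keratin genes had log2 changes of 0.66 (Krt8), 0.95 (Krt18) and 0.74 (Krt19), against 0.16 to 0.23 for Epcam, Cdh1 and Cldn7, and none passed. Per 1000 reads of these 6 epithelial genes, Isx stood at 1.64, 1.84 and 1.95 reads in PG_KO and at 4.02, 4.25 and 3.72 reads in ctr libraries. On the same scale Cdx2 stood at 7.34 ± 0.544 in PG_KO and 6.47 ± 1.44 in ctr libraries. Per 1000 reads of the intestinal epithelium list, Isx stood at 4.73 ± 0.262 in PG_KO and 5.91 ± 0.666 in ctr libraries and Cdx2 at 19.3 ± 2.21 in PG_KO and 9.88 ± 4.07 in ctr libraries (SD, n = 3 each). In an edgeR fit scaled to the epithelial genes, chosen after the data were seen, the median of all genes shifted to -0.63, Isx changed by -1.14 (edgeR adjusted p = 0.12) and Gata4 by -3.50 (edgeR adjusted p = 0.0816). In that fit Cdx2 changed by 0.18 and Cdx1 by -0.29, and 0 of the 9 passed. Scaled instead to the intestinal epithelium list, also chosen after the data were seen, the median of all genes was 0.22, Isx changed by -0.32 (edgeR adjusted p = 0.353, 0.12 to 0.643 over its alternatives) and Cdx2 by 0.96 (edgeR adjusted p = 0.157), and 0 of the 9 passed. The sizes of these changes thus differ between the scales. Without ctr replicate 1, which had the highest smooth muscle and fibroblast sums, and PG_KO replicate 3, which had the lowest fibroblast sum, Isx changed by -0.81 and Gata4 by -2.38, and 0 passed. The part of these other cells in the results was not tested further.

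**Figure D5:**
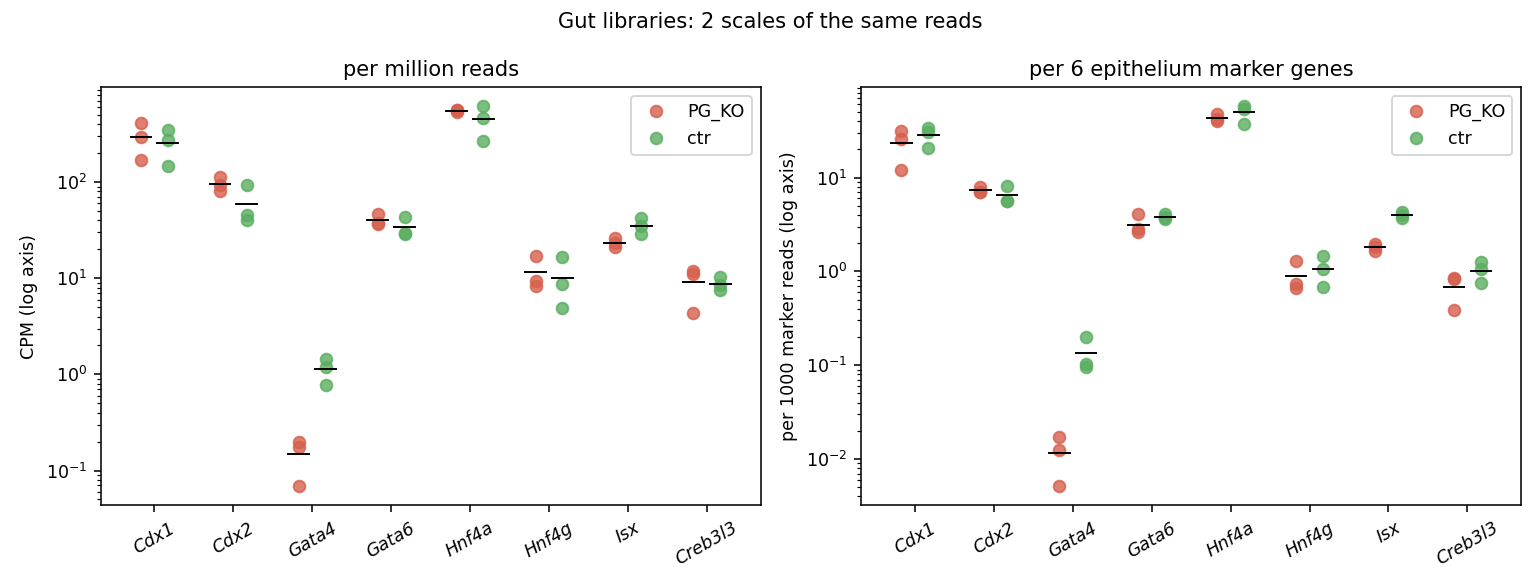
Levels of 8 factors in PG_KO and ctr gut on log axes, in CPM (left) and per 1000 reads of 6 epithelial genes (right), with 1 point per library and the mean as a black line. Gata4 and Isx separate the groups on both scales, and Cdx2 lies closer together on the right (7.34 ± 0.544 in PG_KO and 6.47 ± 1.44 in ctr).

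No gene on the lists of other factors and targets passed in gut, where 0% of the 18043 genes tested passed. Among 30 tested factors the smallest p belonged to the goblet cell factor Spdef, at 13.1 ± 3.61 CPM in PG_KO and 35.2 ± 17.6 CPM in ctr libraries (log2 change -1.44, SE 0.40, edgeR adjusted p = 0.33). Maf changed by -1.64, Pitx1 by -1.48 and Osr2 by -2.17, with the same adjusted p. Among 20 tested targets it belonged to the mucin Muc2, at 271 ± 156 CPM in PG_KO and 1695 ± 595 CPM in ctr libraries (-2.64, SE 0.45, edgeR adjusted p = 0.33). Cdhr2 and Cdhr5 stood at 277 ± 49.5 and 473 ± 90.0 CPM in PG_KO, against 485 ± 94.7 and 819 ± 158 CPM in ctr libraries.

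The organoid change and the gut change were then compared directly. The Tamoxifen against DMSO change exceeded the PG_KO against ctr change for 7 of the 9 factors in an edgeR interaction over all 15 libraries, where 36% of the 19318 genes tested passed (18.4% higher and 17.6% lower). The difference was 12.40 for Cdx1 (SE 0.85), 3.55 for Cdx2 (SE 0.39), 2.08 for Hnf4a (SE 0.37) and 14.35 for Isx (SE 0.51) on the log2 scale. Since Isx had 0 reads in DMSO organoids, its fitted value is no bound, and the organoid change alone was at least 10.78. Gata5 and Gata6 did not pass, at 0.50 (SE 0.49, edgeR adjusted p = 0.464) and -0.20 (SE 0.24, edgeR adjusted p = 0.547). Among other factors 17 of 31 passed as higher and 6 as lower, and among targets 24 of 26 passed, all higher.

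Set against tissue, both kinds of organoid differed from gut in all 9 factors, in different ways. Between Tamoxifen organoids and PG_KO gut, the 2 groups with low Jup, 9 of 9 passed, 8 higher in organoids and Cdx1 lower, where 59.5% of genes passed (25.5% higher and 33.9% lower). Libraries of these groups did not overlap for any of the 9, nor for 73.2% of all genes. Gata4 was 856-fold higher (log2 change 9.74, SE 0.63), Gata5 146-fold (7.19, SE 0.36), Hnf4g 15.9-fold (3.99, SE 0.41) and Creb3l3 10.1-fold (3.33, SE 0.39). Hnf4a was 2.02-fold higher (1.02, SE 0.26, edgeR adjusted p = 0.00436), and Cdx1 averaged 103 ± 5.45 CPM in Tamoxifen organoids and 295 ± 123 CPM in PG_KO gut (-1.40, SE 0.35, edgeR adjusted p = 0.00334). Between nativ organoids and ctr gut 9 of 9 passed as well, 2 higher and 7 lower, where 70.4% of genes passed (31% higher and 39.4% lower). Again none of the 9 overlapped, as for 68.6% of all genes. Gata5 and Gata6 were the pair that was higher in nativ organoids, at 50.9 ± 6.88 and 71.1 ± 9.59 CPM, against 0.644 ± 0.452 and 33.9 ± 7.90 CPM in ctr gut. Isx had 2 reads in nativ organoids and 2714 in ctr gut, where it was higher by a ratio of 1548 (95% counting interval 428 to 12785). Cdx1 changed by -10.61 (SE 0.58), Creb3l3 by -5.31 (SE 0.53), Hnf4g by -4.13 (SE 0.49), Cdx2 by -1.62 (SE 0.27) and Hnf4a by -1.43 (SE 0.27). Gata4 passed at -2.76 (SE 0.70, edgeR adjusted p = 0.00304) but not in a fit of only the 6 compared libraries (-2.74, edgeR adjusted p = 0.0741). Gut held far more smooth muscle, fibroblast and immune RNA than organoids by the sums given above. In fits scaled to the epithelial genes all 9 passed in both comparisons. There Cdx1 was at -1.07 and Hnf4a at 1.38 in Tamoxifen organoids against PG_KO gut (median of all genes 0.25). Without that scaling, log2 changes of the 6 epithelial genes ran from -1.41 (Cldn7) to 3.42 (Krt18) in nativ organoids against ctr gut. In Tamoxifen organoids against PG_KO gut they ran from -0.95 (Krt19) to 0.48 (Krt18). The scaled fits thus cannot show changes per epithelial cell. Both comparisons set a culture against a tissue, and organoid and gut libraries sit in separate deposited tables.

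Other genes differed between Tamoxifen organoids and gut as well. Against PG_KO gut 9 of 31 other factors were higher and 10 lower, where 25.5% of all genes tested were higher and 33.9% lower. The median log2 change of these factors was 0.17, against -0.11 over all genes. The smallest p belonged to Onecut2, at 37.9 ± 4.79 CPM in Tamoxifen organoids and 0.141 ± 0.0858 CPM in PG_KO gut (8.08, SE 0.36). Onecut2 was also higher in nativ organoids, at 178 ± 47.7 CPM against 0.155 ± 0.131 CPM in ctr gut (10.35, SE 0.37). Next came Ppara, a receptor of fatty acids, at 34.7 ± 1.37 CPM in Tamoxifen organoids against 1.90 ± 0.871 CPM in PG_KO gut (4.29, SE 0.31). Of 26 targets 24 were higher and 1 (Muc2) lower, with a median of 3.55. The microsomal triglyceride transfer protein gene Mttp stood at 909 ± 30.3 CPM in Tamoxifen organoids and 5.67 ± 0.464 CPM in PG_KO gut (7.41, SE 0.35), and Fabp1 had 26893 reads in Tamoxifen organoids and 3 in PG_KO gut. In nativ organoids against ctr gut 7 of the 31 factors were higher and 20 lower (median -1.69), and 2 of 26 targets were higher and 16 lower (median -2.46). Of all genes tested there, 31% were higher and 39.4% lower. Gucy2c, the guanylin receptor gene, stood at 0.127 ± 0.22 CPM in nativ organoids and 185 ± 73.7 CPM in ctr gut (-10.25, SE 0.62).

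Ranked by group mean CPM, Tamoxifen organoids came first for Cdx2, Gata4, Gata6, Hnf4a, Hnf4g, Isx and Creb3l3, PG_KO gut for Cdx1 and DMSO organoids for Gata5. PG_KO and ctr gut were neighbours with overlapping libraries for 7 of the 9 factors, all but Gata4 and Isx, and nativ and DMSO organoids overlapped for all 9. Of all genes tested, only 18.6% did not overlap between PG_KO and ctr gut and 14.1% between DMSO and nativ organoids. Gata6 varied least, by 2.51-fold between its highest and lowest group mean, and Hnf4a by 7.32-fold, whereas Gata5 varied 171-fold and Hnf4g 721-fold.

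The genes most like each factor were sought among 12510 protein-coding genes by the root mean square difference of centred log2 CPM over the 15 libraries, where 0 is an identical pattern. Gata6 had the closest matches, Mpzl2 at 0.151 and Bag4 at 0.160. Hnf4a was closest to the villin gene Vil1 (0.236) and to Lclat1 (0.248), and Isx to Cdhr2 (0.339) and Btnl6 (0.517). Cdx2 was closest to Me2 (0.348) and Dhrs11 (0.409), Creb3l3 to Igsf23 (0.531) and Cftr (0.683), and Hnf4g to Cftr (0.561) and Guca2b (0.563). Gata5 was closest to Btn2a2 (0.579) and Zfpm1 (0.699), Cdx1 to the mucin Muc13 (0.616) and Trim31 (0.721), and Gata4 to Ang4 (0.735) and Malrd1 (0.899). Among the factors themselves the nearest pairs were Hnf4g with Creb3l3 (0.635) and Cdx2 with Hnf4a (0.674). These distances describe 5 groups of libraries more than 15 independent points.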

How the data were processed

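Per the labels' protocols, TRIZOL was used to isolate RNA (lowest integrity number 7.7), and poly(A) selection preceded TruSeq preparation. The submitters' processing notes name the genome build GRCm38.p6, the aligner STAR 2.7.2b, featureCounts 1.6.4, DESeq2, cutadapt 2.5 and bcl2fastq 2.20.0.422, and the strand setting is not given in the sources used here. The authors deposited expected counts per gene, of which 10.4% to 13.7% per library are not whole, as when reads shared by several genes are divided. These were rounded for fits.

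Groups follow the sample descriptions. The column for ctr replicate 3 begins with "gtr" and was matched by its code. The test was edgeR's quasi-likelihood F test (edgeR 4.0.16, R 4.3.3, TMM factors, filterByExpr by group, robust) with Benjamini-Hochberg adjustment over all genes tested, called at 0.05, in fits of the 9 organoid libraries, the 6 gut libraries, or all 15 for organoid against gut and the interaction. SE is the size of a log2 change over the root of its F value. Intervals of log2 changes take this SE with a normal quantile, which makes them somewhat narrow for fits of so few libraries. TPM use the deposited exon lengths. Likeness used log2 CPM with a prior count of 2 and genes that averaged 5 CPM or more in some group. All 9 factors passed the low-count filter in the fits of the 9 organoid, the 6 gut and all 15 libraries, but not in every alternative. Floors are 3 reads, and floors and intervals cover counting error only. The factors, the lists of other factors, targets and markers, and the tests were chosen with earlier results of these data known. Named list genes are those with the 4 smallest p per comparison and those at 0 reads in a group, with exceptions marked; 2 genes of the list of other factors are counted but not reported here. Alternatives were DESeq2 1.42.0, RLE factors, the replicate number as a block, library totals, fits of only the compared libraries, leaving out each library, and 2 other filters (none, or 1 CPM in 3 libraries). Scaling to either epithelial marker list, and leaving out ctr replicate 1 with PG_KO replicate 3, were added after the data were seen. Code was tested on simulated data. Figures used matplotlib 3.10.9 in Python 3.11.15.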

Additional observations from a re-analysis of the deposited data

Results flagged for a closer look

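The changes between Tamoxifen and DMSO organoids differed from those between PG_KO and ctr gut for 7 of the 9 factors, by the edgeR interaction test over all 15 libraries. Of the 19318 genes tested 36% passed in that test (18.4% higher and 17.6% lower). The difference of the log2 changes was 12.40 for Cdx1 (SE 0.85, edgeR adjusted p = 1.53e-07), 3.55 for Cdx2 (SE 0.39, edgeR adjusted p = 1.06e-05) and 13.73 for Gata4 (SE 0.96, edgeR adjusted p = 1.78e-07). It was 2.08 for Hnf4a (SE 0.37, edgeR adjusted p = 0.000678), 9.15 for Hnf4g (SE 0.68, edgeR adjusted p = 3.01e-07), 14.35 for Isx (SE 0.51, edgeR adjusted p = 4.13e-09) and 9.46 for Creb3l3 (SE 0.69, edgeR adjusted p = 2.66e-07). Each of the 7 kept its call in all 18 alternatives run. Organoid code, Cre and treatment cannot be told apart in the first of these changes. Isx had 0 reads in DMSO organoids, so its fitted value is no bound, and its organoid change was at least 10.78. Fitted values of Cdx1, Gata4 and Isx depend on how near-absent reads in DMSO organoids are treated.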

How the results depend on the processing

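Of 98 recomputed counts of called factors 96 stayed within 1.5 times the reported count. The 2 others were in gut, where DESeq2 called 1 factor, and leaving out 1 library at a time gave 0 to 2, with 2 without ctr replicate 3. Of 876 recomputed single changes 848 kept direction and side of the threshold, 22 turned sign without passing, and the cause was not tested. In gut, Cdx1 changed by -0.29 scaled to epithelial markers, by -0.44 without ctr replicate 1 and PG_KO replicate 3, and by -0.14 to 0.52 with 1 library left out. Hnf4g changed by -0.26, -0.52 and -0.16 to 0.82 in the same settings, and Creb3l3 by -0.57, -0.18 and -0.19 to 0.44. Scaled to epithelial markers Gata6 changed by -0.28 and Hnf4a by -0.20. With 1 library left out, Gata6 changed by -0.03 to 0.16 in Tamoxifen against DMSO organoids and by -0.02 to 0.17 in DMSO against nativ organoids, where Cdx2 ranged from -0.15 to 0.06, Gata4 from -1.86 to 3.91 and Creb3l3 from -1.69 to 0.33. The 3.91 of Gata4 is fitted over 0 nativ reads without nativ replicate 2 and is no bound; against 3 reads DMSO organoids were higher by at least 0.30 (log2). The interaction of Gata5 ranged from -0.19 to 0.85. With the replicate number as a block, 8 and 7 factors were called for Tamoxifen against DMSO and nativ organoids and 0 for DMSO against nativ organoids and for PG_KO against ctr gut, and Creb3l3 in gut changed by -0.02. Same-numbered libraries correlated between -0.183 and 0.289. With 3 libraries per group these values cannot settle whether the numbers pair the libraries, and the block changed no call. A minimum of 1 CPM gave no value for Gata4 and Gata5 in gut, and fits of only the compared libraries gave none for Cdx1, Gata4, Isx and Creb3l3 between DMSO and nativ organoids. Over all genes DMSO against nativ organoids gave 0 calls with edgeR and 138 with DESeq2, and gut gave 0 with edgeR, 435 with DESeq2, 15 scaled to epithelial markers, 0 scaled to intestinal epithelium markers and 1478 without ctr replicate 3. Library totals moved the median change of all genes to 0.13 in Tamoxifen against nativ organoids, to -0.38 in nativ organoids against ctr gut and to 0.16 in the interaction. Single codes per organoid group, conflicting gut titles and near-absent reads limit these results.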
